A study of Ginkgo biloba with 2 samples.

Results

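The copper microRNAs (miRNAs) miR397, miR398, miR408 and miR857 were examined in leaves of Ginkgo biloba, a gymnosperm tree whose female and male plants are separate individuals. The families were chosen by name, and all 4 were present among the 723 known miRNA names in the deposited tables. Small RNA had been sequenced from mature leaves of female trees and of male trees, about 30 years old and grown outdoors, with 1 library per sex. No treatment, copper supply or strain is given for either sex, nor is it known from these sources if a single tree or pooled trees gave each library. There were 13193290 reads of female and 12137619 reads of male leaves, of which 18.7% and 20.2% were assigned to known names. Levels are given as RPM, reads per 1000000 reads of the library, so that a single read counts as 0.0758 RPM for female and 0.0824 RPM for male leaves. The tables hold no messenger RNA, so the leaf label was not checked against marker genes. With 1 library per sex there was no replicate check and no test between the sexes. The 95% intervals below come from the read counts and cover counting error only, since PCR reads without molecular identifiers are not independent molecules.

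Plants use copper as a cofactor of plastocyanin in photosynthesis, of superoxide dismutases, and of secreted enzymes such as laccases. In Arabidopsis the 4 families are raised when copper is scarce, under the transcription factor SPL7, and they cut transcripts of copper proteins that the cell can spare. There miR397 and miR857 act on laccases, which polymerise lignin in cell walls. They are called the laccase families below by this role in Arabidopsis only. Of the others, miR398 acts on copper/zinc superoxide dismutases and on their copper chaperone, and miR408 acts on plantacyanin, a small blue copper protein, and on laccases. Of the 4, miR397, miR398 and miR408 are found widely among seed plants, whereas miR857 was described in Arabidopsis.

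The sequences that the authors listed for the families are printed here because seeds and predicted targets refer to them. Levels are read counts per name, and whether they cover the listed sequence alone is not given. T stands for U, the 5′ end is on the left, and the capitals mark the seed, bases 2 to 8.
miR397, female and male: tTGAGTGCagcgttgacgatt
miR857, female and male: tTTTGTATgtgaagattgtt
miR398, female: cGTGTTCCcaggtcaccccag
miR398, male: cGTGTTCTcaggtcacccctg
miR408, female and male: aTGCACTGcctcttccctggc

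The listed sequences of miR397, miR408 and miR857 were identical between the female and male libraries, and only that of miR398 differed. Counted from the 5′ end, with the female base before the position and the male base after it, the miR398 sequences differed by C8T and A20T. The change C8T lies at the last base of the seed, so the libraries were listed with different miR398 seeds. Each name had 1 listed sequence, and how it was chosen is not given, so the share of miR398 reads with either form was not analysed here.

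No seed was shared within the group. The laccase families miR397 and miR857 were 11 edits apart, the fewest of any pair of the group in both libraries. Their longest common run was 4 bases. The closest pair by common run was miR398 and miR408, with 5 bases in both libraries. No other known name lay within 3 edits of any of the 4 sequences in either library, and the nearest names stood 6 to 9 edits away. A seed was shared with another known name only for miR397, with miR6456 in the female library, a name with 1 read.

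The sequences differed in length, 5′ base and composition. The miR397, miR398 and miR408 sequences were 21 bases long, the length of 55.7% of the names with reads in female and 56.6% in male leaves, and that of miR857 was 20 bases long, as in 14.0% and 11.3% of names. The 5′ base was T for miR397 and miR857, as for 50.2% of female and 51.7% of male names. It was A for miR408, as for 28.7% and 31.0%, and C for miR398, as for 10.6% and 9.21%. The miR857 sequence held 11 T and no C, a GC content of 25%, and 507 of 530 female names had a higher one. At the other end, the female miR398 sequence had a GC content of 66.7%, exceeded by 9 of 530 names, and the male one 61.9%, exceeded by 18 of 532. The GC content of miR408 was 61.9% and that of miR397 47.6%.

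Of the laccase families, miR397 was also the most abundant copper family. It had 31944 reads (2421 RPM, interval 2395 to 2448) in female leaves and 23173 reads (1909 RPM, 1885 to 1934) in male leaves. That placed it 10th of the 530 names with reads in female leaves and 16th of 532 in male leaves. It made up 96.5% of the copper family reads in the female library (interval 96.3 to 96.7) and 94.2% in male leaves (93.9 to 94.5). The second laccase family, miR857, had 325 reads (24.6 RPM, 22.0 to 27.5) in female and 426 reads (35.1 RPM, 31.8 to 38.6) in male leaves. It ranked 132nd and 115th.

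The families miR408 and miR398 were low as well. miR408, known for plantacyanin and laccase targets in Arabidopsis, had 590 reads (44.7 RPM, interval 41.2 to 48.5) in female and 597 reads (49.2 RPM, 45.3 to 53.3) in male leaves, and ranked 99th and 101st. miR398, the superoxide dismutase family, had 253 reads (19.2 RPM, 16.9 to 21.7) in female and 413 reads (34.0 RPM, 30.8 to 37.5) in male leaves, and ranked 145th and 122nd. The intervals of the female and male libraries overlapped for miR408 and were apart for miR397, miR398 and miR857.

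**Figure D1:**
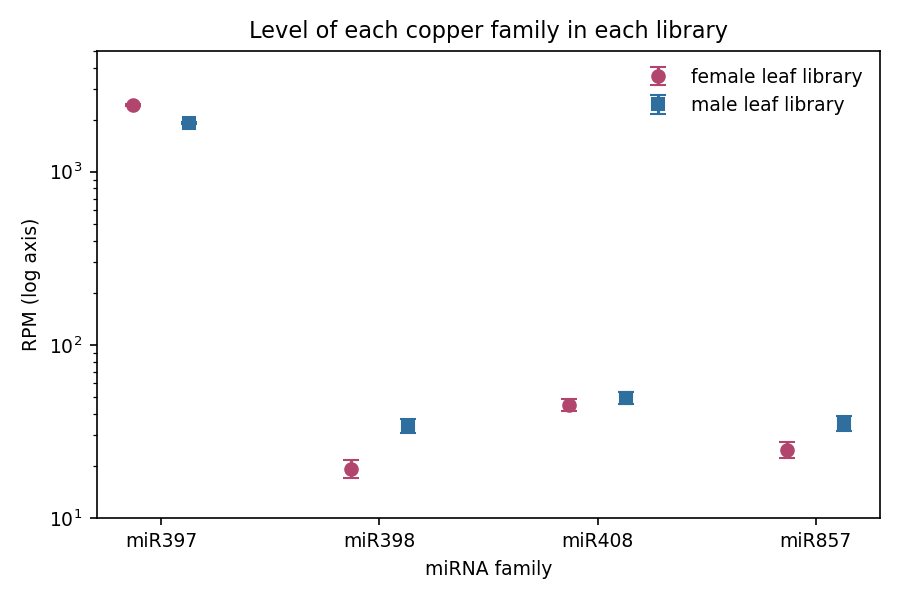
RPM of each copper family on a log axis in the female (circles) and male (squares) leaf library, with 95% Poisson intervals of the reads. miR397 stood at 2421 and 1909 RPM, and the other families lay between 19.2 and 49.2 RPM.

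The order from high to low was miR397, miR408, miR857 and miR398 in both libraries. In the female library miR397 had 54.1 times the reads of miR408 (interval 49.9 to 58.8), and in male leaves 38.8 times (35.8 to 42.2). miR408 exceeded miR857 by 1.82-fold in the female library (1.58 to 2.09) and by 1.40-fold in male leaves (1.24 to 1.59). miR857 exceeded miR398 by 1.28-fold in the female library (1.09 to 1.52). In the male library that last pair was not separated, at 426 and 413 reads (1.03-fold, 0.899 to 1.18). From the highest to the lowest family the span was 126-fold in female (112 to 143) and 56.1-fold in male leaves (50.9 to 62.0).

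In a list of 37 well-described plant families, the copper families included, miR397 ranked among the highest and the others near the middle. By reads, miR397 was 4th in female and 5th in male leaves, miR408 was 16th and 19th, miR857 was 20th and 21st, and miR398 was 22nd and 23rd. All 4 copper families together made up 1.34% of known miRNA reads in the female library (interval 1.33 to 1.36%) and 1.01% in male leaves (0.993 to 1.02%). Without miR397 the share was 0.0473% (0.0447 to 0.0501%) in female and 0.0587% (0.0557 to 0.0618%) in male leaves, so the order of the sexes turned.

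**Figure D2:**
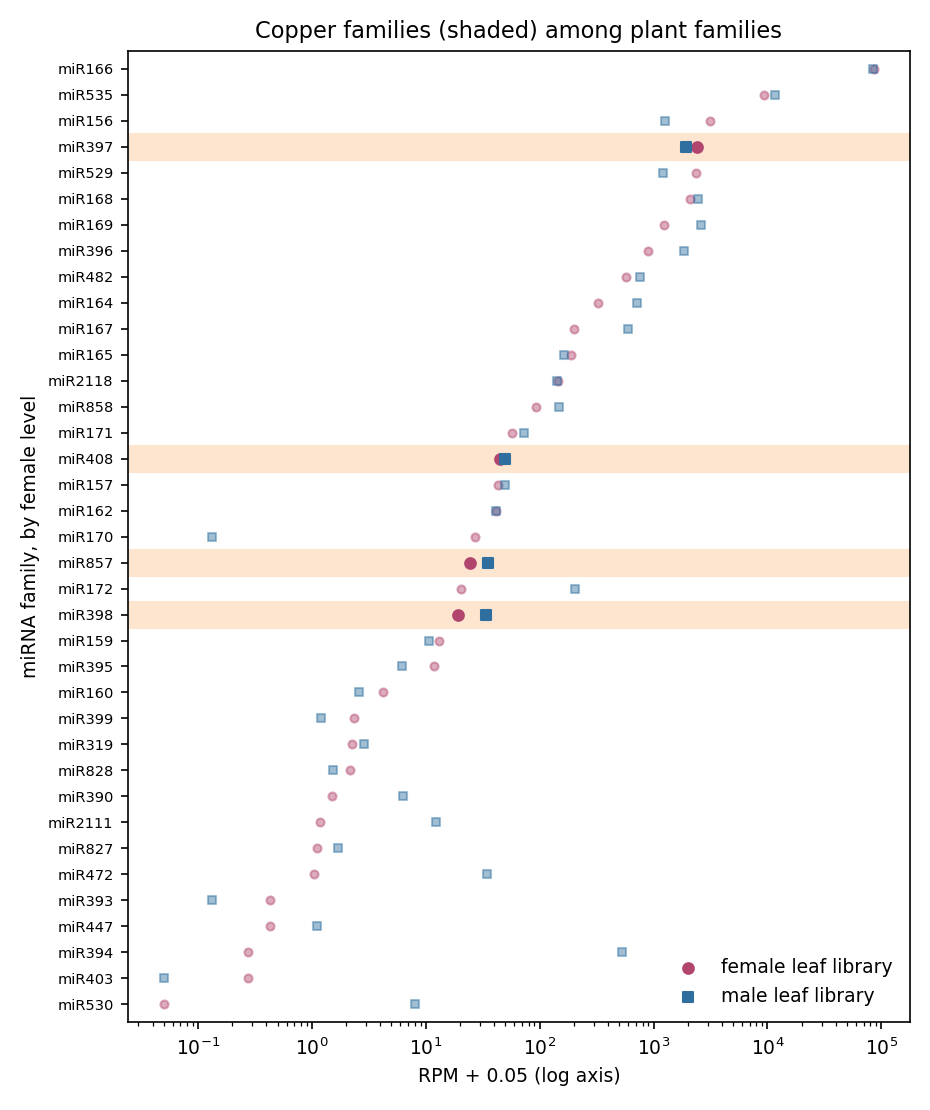
RPM plus 0.05 on a log axis for 37 well-described plant families, ordered by their female level, in the female (circles) and male (squares) library, with the copper families shaded. miR397 is 4th from the top, and miR408, miR857 and miR398 lie 16th, 20th and 22nd.

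The names nearest to each family in level were found by distance on log2(RPM + 1) over the 2 libraries, which gives a likeness of level only. For miR397 these were miR1220 (2916 female and 2136 male RPM) and miR168 (2107 and 2477), a regulator of ARGONAUTE1. For miR408 they were miR157 (42.8 and 49.5 RPM), a relative of miR156, and miR862 (44.3 and 54.3). For miR857 they were miR5716 (24.7 and 36.7 RPM) and miR8155 (24.3 and 38.8), and for miR398 miR5368 (19.0 and 31.6) and miR5519 (20.3 and 39.1). Of these names, miR8155 and miR5368 were listed under different sequences in the female and male libraries.

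Between the sexes, miR397 was higher in female leaves and the other 3 families were higher in male leaves, miR408 by less than its counting error. On the log2 scale of RPM plus 1, female over male, miR397 stood at 0.34, miR408 at -0.13, miR857 at -0.49 and miR398 at -0.80. As a fold of female over male reads per library total, these were 1.27 for miR397 (interval 1.25 to 1.29), 0.909 for miR408 (0.810 to 1.02), 0.702 for miR857 (0.606 to 0.813) and 0.564 for miR398 (0.480 to 0.661). The interval held 1 for miR408 alone, beside the 218 of 232 known names called by the binomial test of reads. The miR398 values compare reads listed under different sequences, and the part of this in the difference was not tested.

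No copper family was at least 2-fold apart, the threshold used in place of a test. Of the 232 known names that reached 10 RPM in at least 1 library, 145 were, or 62.5%. All 4 copper families reached 10 RPM in both libraries, and of the 117 names that did so 34 were at least 2-fold apart, or 29.1%. At 1.5-fold, miR398 was the 1 family of 4 apart, beside 45.3% of the 117 names. After median ratio scaling its log2 value on RPM plus 1 was -0.58, just within 1.5-fold. Without the added 1, its scaled female over male fold was 0.661, just beyond 1.5-fold. The median log2 difference of the 4 families was -0.31, beside -0.22 over the 117 names and -0.27 over the 232. The median size of the difference, whatever its sign, was 0.42 log2 units for the 4 families, 0.49 over the 117 names and 1.97 over the 232.

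**Figure D3:**
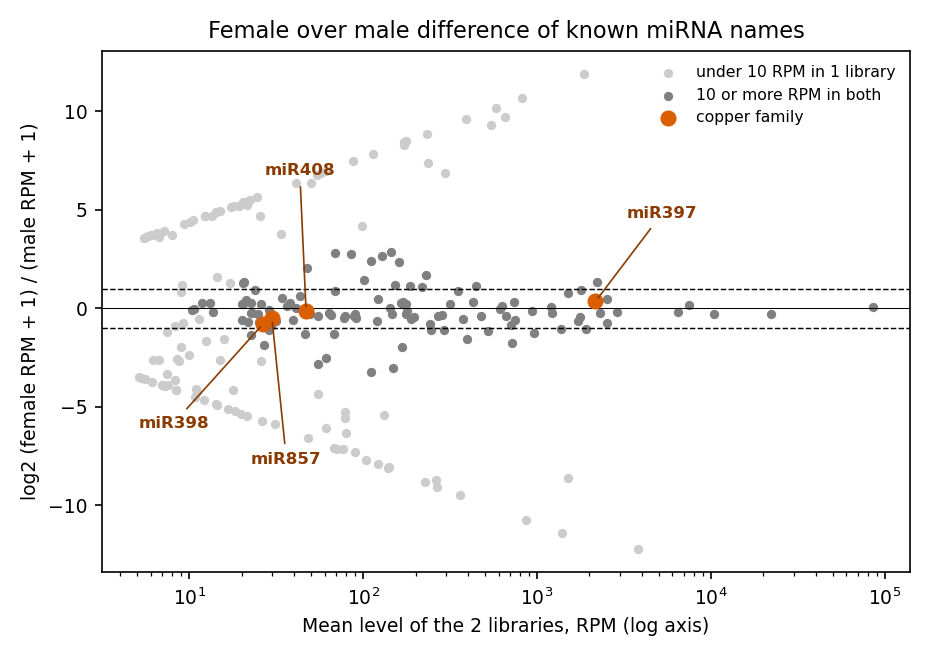
log2 difference of RPM plus 1, female over male, against the mean RPM of the libraries on a log axis, for the 232 known names that reached 10 RPM in either library. The dashed lines mark 2-fold, and all 4 copper families (orange) lie between them, from -0.80 for miR398 to 0.34 for miR397.

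These differences depend on how the libraries are scaled. The 117 names had a median log2 female over male ratio of -0.23 with no pseudocount, here called the median shift. Relative to that shift, the female over male fold was 1.49 for miR397 (interval 1.46 to 1.51), 1.07 for miR408 (0.950 to 1.20), 0.823 for miR857 (0.710 to 0.953) and 0.661 for miR398 (0.563 to 0.775). miR408 thus turned from lower to higher in the female library, with 1 inside its interval under both scalings. The other 3 families kept their direction.

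Ratios between families within a library are free of this scaling. The ratio of miR397 to miR398 was 126 in female and 56.1 in male leaves, a fold between the sexes of 2.25 (interval 1.92 to 2.64). This pair joins the families with the highest and the lowest female over male fold, and the miR398 reads were listed under different sequences. How many pairs of other names were 2-fold apart was not counted. The ratio of miR397 to the other laccase family, miR857, was 98.3 in female and 54.4 in male leaves, a fold of 1.81 (1.56 to 2.10). For miR397 over miR408 the fold was 1.39 (1.24 to 1.57). The male library thus held more of each low family per miR397 read. Among the low families, miR408 over miR857 had a fold of 1.30 (1.07 to 1.56), miR398 over miR408 one of 0.620 (0.508 to 0.756), and miR398 over miR857 one of 0.803 (0.645 to 0.999), close to 1 at its upper end.

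**Figure D4:**
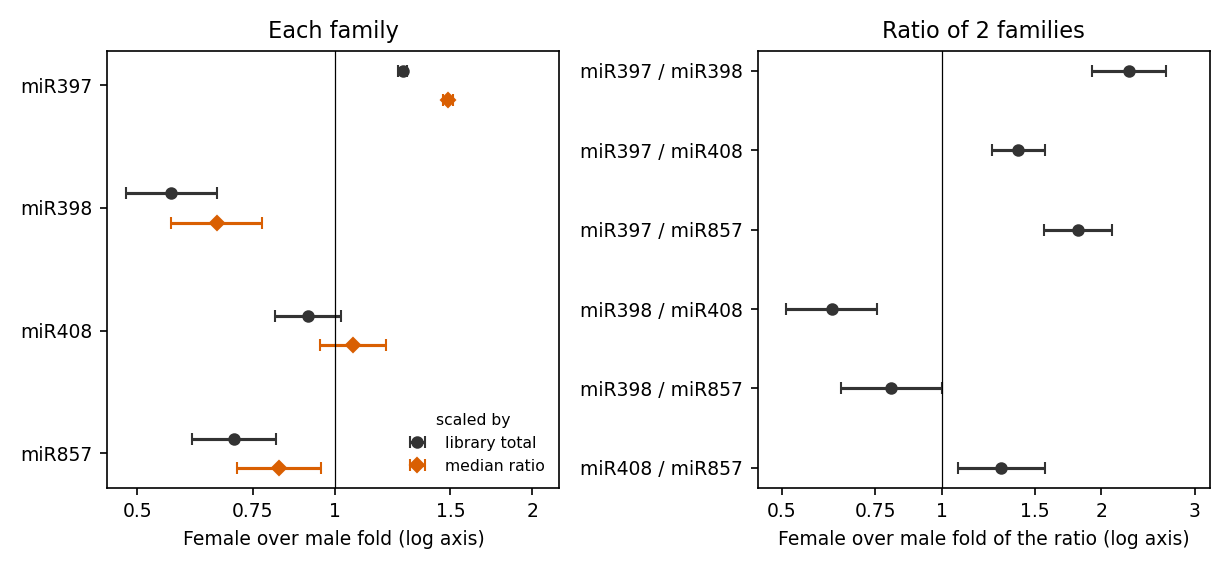
Left, female over male fold of each family on a log axis, scaled by the library total (circles) or by the median ratio of 117 names (diamonds). Right, the same fold for the ratio of each pair of families, with 95% intervals of the reads in both panels. miR397 lies above 1 under both scalings, miR857 and miR398 lie below, and the miR408 intervals cross 1.

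The predicted targets come from sequence and were not measured. miR397 had 2 listed targets, the contig CL6774.Contig3 and a public nucleotide record not named here. miR857 had 28, of which 16 were contigs with 6 CL numbers and 12 were Unigenes. The CL800 contigs accounted for 7 of them and the CL382 contigs for 4. In the female library 12 of 380 names with targets had more than miR857, and in male leaves 11 of 340, where the median name had 3. The tables do not define the CL numbers, so identifiers were counted, not genes.

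miR398 had 3 targets, CL5454.Contig1, CL7641.Contig1 and CL7641.Contig2, and miR408 had 1, Unigene27572. The annotation fields of the target tables are empty, so none of these transcripts could be named as a laccase, a plantacyanin or a superoxide dismutase.

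The laccase families had no predicted target in common. Of the 2 targets of miR397 and the 28 of miR857, 0 were shared, which is 0% of each list, and no CL number was shared either. The same held for each of the other pairs of copper families in both libraries. None of the 34 targets of the group was listed for any other known name, while 7.42% of the 2116 targets in the female tables and 9.29% of the 2002 in the male tables were listed for 2 or more names.

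The female and male target lists were identical for each of the 4 families. For miR397, miR408 and miR857 this follows from their identical sequences: all 110 names with the same sequence and targets in both libraries had identical lists. For miR398 it does not follow, since C8T and A20T separate the sequences. Of 23 names with different sequences within 2 edits and with targets in both libraries, 7 had identical lists (30.4%), miR398 among them.

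Some targets of the group were also listed for miRNAs that the authors predicted from these libraries. Unigene27572, the miR408 target, was the sole target of FLGB-m0133_5p in the female table and of MLGB-m0126_5p in the male table. CL5454.Contig1, a miR398 target, was listed with 2 other transcripts for FLGB-m0050_3p in the female table alone. This made 2 of 34 targets (5.88%) in female and 1 of 34 (2.94%) in male leaves, beside 4.49% and 3.95% of all targets of known names. Sequences and levels of these predicted miRNAs were not analysed here, since the level tables use other names for them.

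Of 7 other nutrient names looked for, 5 were in the tables. miR1444, which acts on polyphenol oxidase, another copper enzyme, in poplar, had no read in female leaves and 171 in male leaves (14.1 RPM). Against a limit of 3 reads in the female library it was at least 62.0-fold higher in male leaves. Its listed male sequence, shown because it is the other copper-linked name, was 18 bases long with the seed in capitals.
miR1444, male: tTCACATTggctaagttc
It had 27 predicted targets, 11 of them CL291 contigs, and 0 in common with the 4 copper families. The sulphate family miR395 had 154 female and 75 male reads, 1.89-fold higher in female leaves (interval 1.42 to 2.52) and 2.22-fold relative to the median shift. The phosphate family miR399 had 30 female and 14 male reads, and miR827, which acts on phosphate transport, had 14 and 20. The phosphate signalling family miR2111 had 15 female and 148 male reads, listed under different sequences. Of the 3 nutrient names that reached 10 RPM, miR395, miR1444 and miR2111, 2 were at least 2-fold apart, beside the 62.5% given above. All 3 reached 10 RPM in 1 library only. The 2 that were apart, miR1444 and miR2111, passed only through the male library, where they were high. The count therefore follows in part from the minimum and is no result about these names.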

How the data were processed

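Small RNA reads of 1 female and 1 male leaf library were analysed. The level tables, named TPM by the authors, hold RPM as deposited: every value equals a whole number of reads over 1 library total to within 5.0e-05 RPM, and 100% of values under 60 RPM were whole to within 0.01 read. The second deposited table gives raw read counts per name with 1 sequence. The deposited target tables give another kind of value, a number of predicted targets with identifiers. Aligner, databases and prediction tools: not given in the sources used here.

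Read ratios carry exact conditional binomial (Clopper-Pearson) intervals, levels exact Poisson intervals and ratios of ratios conditional odds ratio intervals (scipy 1.17.1, Python 3.11.15). Edit distances came from edlib 1.3.9. Differences are log2 of (RPM + 1), female over male, which understates those of low names. The intervals and the 2-fold rule were run on simulated reads with counting error only, where changed names were set well beyond 2-fold. That simulation held no spread between trees and no folds as small as those of the copper families, so it is no check on either. An exact binomial test of the whole reads, which compares the libraries and not the sexes, called 218 of 232 names at an adjusted p under 0.05 (Benjamini-Hochberg), 3 of the 4 copper families among them.

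The families and lists were chosen with earlier results of these data known. Named beside them are the 2 names nearest in level, names within 3 edits or with the same seed, up to 3 targets per family (for miR857 the CL numbers with most contigs) and 7 nutrient names. The levels of predicted miRNAs were not used.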

Additional observations from a re-analysis of the deposited data

How the results depend on the processing

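No paired analysis was possible because there was 1 library per sex, and no library could be left out. Scaling by the median ratio moved the log2 female over male value of miR397 to 0.57, of miR857 to -0.27 and of miR408 to 0.091, the only one to turn its direction, and scaling by the summed known reads moved miR397 to 0.45. No copper family was 2-fold apart under any pseudocount (0.1 or 10), scaling or minimum tried, though miR397 alone remains at 100 RPM. At 1.5-fold, 1 was, miR398 (log2 -0.80). After median ratio scaling it lay just within 1.5-fold on RPM plus 1 (log2 -0.58) and just beyond it with no pseudocount (fold 0.661). Of the 232 known names that reached 10 RPM in at least 1 library, 145 were 2-fold apart. The count was 249 with no minimum, 66 at 100 RPM, 34 at 10 RPM in both libraries and 26 with the same listed sequence. It was 218 by the binomial test of reads. The last 3 counts were alternatives chosen after the data were seen. These settings admit different numbers of names, and the binomial test sets no fold minimum. The counts of 249, 66 and 26 are not shares, so they give no background for the copper families. The share of copper reads in the female and male library was 0.0473% and 0.0587% without miR397, and 2.28% and 1.83% of the reads of the 37 listed plant families. Among the other 39 values, no level changed direction or its side of 2-fold, and each count stayed within 1.5 times its main value (145 known names became 132 to 167, and 3 separated neighbours in the female library became 2 with the same listed sequence). Some of these 39 values could not change and show no stability. They include the levels at the 1.5-fold threshold, which repeat the main values, and the copper count with no minimum. The shares of the male target lists, identical to the female ones, are also among them. At 253 to 597 reads, the levels of miR398, miR408 and miR857 have counting intervals that reach 7.86% to 13.1% to either side. The spread between trees is unknown.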
